A study of Homo sapiens with 14 samples.

Results

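The EGR and NR4A early response factors are 7 genes, EGR1, EGR2, EGR3, EGR4, NR4A1, NR4A2 and NR4A3, chosen by family name and found by symbol. All 7 are present among the 24199 features of the DU145 table and the 44591 genes of the LNCaP table. The set was proposed with earlier values of these data known, in which EGR1 and NR4A1 were lower in DU145-shPAX6 cells. The values, intervals and calls of the members below are therefore a description and carry no p-value. RNA was sequenced from LNCaP, a hormone-sensitive prostate cancer cell line, and from DU145, a hormone-insensitive prostate cancer cell line that the study treats as having neuroendocrine (NE) traits. The LNCaP arms are 1 library of parental control cells and 1 library of LNCaP-ENZ cells, a resistant line kept without interruption in 20 µM enzalutamide (ENZ), a drug used to treat prostate cancer. The text of the series gives 30 days for this arm. The DU145 arms are 3 shCON libraries, with a non-target hairpin, and 3 shPAX6 libraries, in which PAX6, a paired-box transcription factor of eye and neural development, was targeted by RNA interference. Both DU145 arms are stable lentiviral subclone lines selected in puromycin. The methods name 2 PAX6 hairpins, and the labels do not say which of them a library carries. No label states that the libraries of an arm came from separate cultures, so p-values measure only the spread between these samples, which may be technical. In bulk RNA, fewer expressing cells and less RNA per cell cannot be told apart.

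EGR proteins are zinc finger transcription factors that bind GC-rich DNA, and NR4A proteins are orphan nuclear receptors that bind DNA as monomers, as dimers and, for NR4A1 and NR4A2, with a retinoid X receptor. Their genes are immediate-early genes: growth factors, serum, stress or calcium induce them within minutes, without new protein synthesis, and the transcripts decay quickly. Induction of EGR genes runs mainly through the ERK kinases, which phosphorylate ELK proteins bound beside serum response factor (SRF) at CArG boxes, and induction of NR4A genes runs largely through CREB and MEF2 proteins. EGR1 is studied in prostate cancer as a growth-promoting factor, EGR2 is the master regulator of myelinating Schwann cells, EGR3 and EGR4 act in muscle spindle, lymphocyte and germ cell development, NR4A1 is known as NUR77, NR4A2 is required for midbrain dopamine neurons, and NR4A3 is known as NOR1.

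The stretches of 250 bases before the annotated transcript starts, which include known serum response elements of EGR1, are shown because these motifs name the regulators listed below. RefSeq promoters of GRCh38.p14 are described for 5 of the 7 members, EGR1, EGR2, EGR4, NR4A1 and NR4A3. EGR3 was left out, and NR4A2 had no promoter entry. The EGR1 stretch lies at chr5:138465229-138465478 (plus strand), that of the EGR2 start farthest downstream of 3 at chr10:62816367-62816616 (minus strand), that of the NR4A1 start farther downstream of 2 at chr12:52037465-52037714 (plus strand) and that of NR4A3 at chr9:99821635-99821884 (plus strand). They are written 5′ to 3′ on the strand of the gene, and capitals mark CArG boxes and TGACG sites. The NR4A1 stretch has no capitals.
EGR1: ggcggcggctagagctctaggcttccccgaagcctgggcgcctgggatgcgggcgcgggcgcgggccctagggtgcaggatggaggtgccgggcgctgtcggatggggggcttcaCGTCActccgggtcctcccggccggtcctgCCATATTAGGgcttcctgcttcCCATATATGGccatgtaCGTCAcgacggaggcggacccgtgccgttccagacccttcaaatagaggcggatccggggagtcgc
EGR2: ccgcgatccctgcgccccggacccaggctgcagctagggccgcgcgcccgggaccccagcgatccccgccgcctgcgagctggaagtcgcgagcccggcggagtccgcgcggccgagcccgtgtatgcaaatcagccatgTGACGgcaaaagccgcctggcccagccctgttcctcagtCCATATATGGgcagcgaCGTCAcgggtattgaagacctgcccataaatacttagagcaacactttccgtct
NR4A1: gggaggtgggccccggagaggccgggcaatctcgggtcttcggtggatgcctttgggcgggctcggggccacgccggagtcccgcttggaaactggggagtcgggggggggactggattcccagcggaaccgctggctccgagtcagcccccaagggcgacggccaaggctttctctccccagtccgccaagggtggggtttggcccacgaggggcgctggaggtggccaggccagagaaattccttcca
NR4A3: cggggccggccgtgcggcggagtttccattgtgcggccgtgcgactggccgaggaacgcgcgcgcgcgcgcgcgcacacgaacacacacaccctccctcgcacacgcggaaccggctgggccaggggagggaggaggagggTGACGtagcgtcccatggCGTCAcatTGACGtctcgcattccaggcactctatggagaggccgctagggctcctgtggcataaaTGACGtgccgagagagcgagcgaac
Motifs were searched on both strands: the CArG box of SRF by name, the CREB site TGACG, the longer CREB site TGACGTCA that overlaps it, the AP-1 site TGANTCA, the EGR sites GCGGGGGCG and GCGTGGGCG, the NR4A monomer site AAAGGTCA and the STAT site TTCNNNGAA. EGR1 held 2 CArG boxes, at 105 to 96 and 83 to 74 bases before the start, 2 TGACG sites and 1 STAT site at 228 to 220 bases. EGR2 held 1 CArG box at 71 to 62 bases and 2 TGACG sites at the start shown and none of the letters at its other starts, whereas NR4A3 held 4 TGACG sites between 109 and 21 bases. EGR4 held 2 TGACG sites, and the stretches of both NR4A1 starts held none of these letters. Among 35116 promoter stretches of the same length, 1.16% held a CArG box, 21.2% a TGACG site, 1.65% the longer CREB site, 6.57% an AP-1 site, 5.37% an EGR site, 1.05% the NR4A site and 6.57% the STAT site. A match is a description of letters and not a site in use.

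Positions are given in GRCh37, the build named in the methods. EGR1 lies on chromosome 5 from 137801181 to 137805004 (plus strand), EGR2 on chromosome 10 from 64571756 to 64578927 (minus), EGR3 on chromosome 8 (minus) and EGR4 on chromosome 2 from 73518057 to 73520829 (minus). NR4A1 lies on chromosome 12 from 52416616 to 52453291 (plus), NR4A2 on chromosome 2 from 157180944 to 157189287 (minus) and NR4A3 on chromosome 9 from 102584137 to 102629173 (plus). NR4A1 overlaps the antisense gene NR4A1AS, NR4A3 overlaps STX17-DT on the opposite strand, EGR3 overlaps a long noncoding RNA on the opposite strand, and EGR2 overlaps ENSG00000289487 on its own strand. No source says that reads were counted by strand, so the reads of such overlapping genes cannot be told apart.

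To see how PAX6 knockdown affects gene expression, DU145-shPAX6 cells were compared with DU145-shCON cells, in FPKM, a value per transcript length and library size. PAX6 itself, the targeted gene, was at 0.839, 1.23 and 1.57 FPKM in shCON and at 0.0153, 0.274 and 0.0778 FPKM in shPAX6, with no overlap, and its log2 fold change of -2.69 (SE 0.49) had a limma adjusted p of 0.054. The deepest knockdown was in shPAX6 library 1, which also had the most features at 0, 7029 against 5898 to 6273 in the other 5 libraries, and the highest FPKM sum, 570790 against 448901 to 503696. The read depth is unknown because the table holds no counts. DU145 had the epithelial markers KRT8, KRT18 and KRT19, summed with EPCAM and CDH1 at 1870 to 2080 FPKM in shCON and 1510 to 2430 in shPAX6, while CDH1 fell from 6.14 ± 0.84 to 1.26 ± 0.53 FPKM (SD, n = 3, limma adjusted p = 0.033). Of the 5 leukocyte markers, CD68 gave nearly all of a summed 35.8 to 38.6 FPKM in shCON and 24.3 to 26.3 in shPAX6, and PTPRC and CD3E were listed at 0 in all 6 libraries. Of the 6 luminal prostate markers, 3 (KLK2, TMPRSS2 and FOLH1) were listed at 0 in every library. Fibroblast and endothelial markers summed to at most 0.706 and 0.127 FPKM. The part of these shifts in the member values was not tested.

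EGR1 and NR4A1 were the abundant members in DU145 cells, and both were lower in every shPAX6 library than in any shCON library. EGR1 had 22.3, 17.9 and 19.4 FPKM in shCON and 4.56, 9.92 and 6.25 FPKM in shPAX6. All 3 shPAX6 libraries were low, the lowest being library 1 and the highest library 2. The means were 19.9 ± 2.2 and 6.91 ± 2.7 FPKM (SD, n = 3), a 2.88-fold lower mean, and the log2 fold change on the log2(FPKM + 0.1) scale was -1.58 (SE 0.28, 95% interval -2.22 to -0.93). Among all features, EGR1 ranked between 3550 and 4076 by level in shCON and between 5968 and 7365 in shPAX6.

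NR4A1, the orphan receptor NUR77, had 32, 38.3 and 40.7 FPKM in shCON and 13.3, 14.1 and 16.5 FPKM in shPAX6. The 3 shPAX6 libraries lay close together, with no overlap between the arms. Its means of 37 ± 4.5 and 14.7 ± 1.7 FPKM gave a 2.52-fold lower mean, with a log2 fold change of -1.33 (SE 0.15, 95% interval -1.69 to -0.97). By level it ranked between 2114 and 2626 in shCON and between 4210 and 4783 in shPAX6.

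NR4A2 followed at a level near 2 FPKM in control cells. It had 1.73, 2.08 and 2.07 FPKM in shCON and 0.505, 0.873 and 0.813 FPKM in shPAX6. These arms did not overlap either, and library 1 was again the lowest. The log2 fold change was -1.34 (SE 0.27, 95% interval -1.97 to -0.70), close to that of NR4A1, but NR4A2 did not pass the threshold of the fit over all features. NR4A3 had 1.96, 1.68 and 2.66 FPKM in shCON and 0.819, 2.34 and 1.34 FPKM in shPAX6. Here shPAX6 library 2 lay inside the shCON range, and the log2 fold change was -0.55 (SE 0.38, 95% interval -1.44 to 0.34). The difference of NR4A3 was within the spread between libraries.

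The other EGR genes were close to 0 in DU145 cells. EGR4 had 0.0663, 0.273 and 0.113 FPKM in shCON and 0.0325, 0.0381 and 0.0809 FPKM in shPAX6, so the ranges overlapped and the shCON mean rested on library 2. EGR2 had 0.0355, 0.0876 and 0.0672 FPKM in shCON, and in shPAX6 it was listed at 0 in library 1 and had 0.0306 and 0.0968 FPKM in libraries 2 and 3. EGR3 had 0.0637, 0.0653 and 0.0461 FPKM in shCON and 0.0288, 0.0513 and 0.0809 FPKM in shPAX6. No direction could be read for these 3 genes, which stayed under the mean of 0.5 FPKM needed for the fit. In the order of levels in shCON cells, NR4A1 was above EGR1 in each library, both were above NR4A2 and NR4A3, whose ranges overlapped each other, and EGR4, EGR2 and EGR3 came last, where EGR2 overlapped both of its neighbours in this order.

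**Figure D1:**
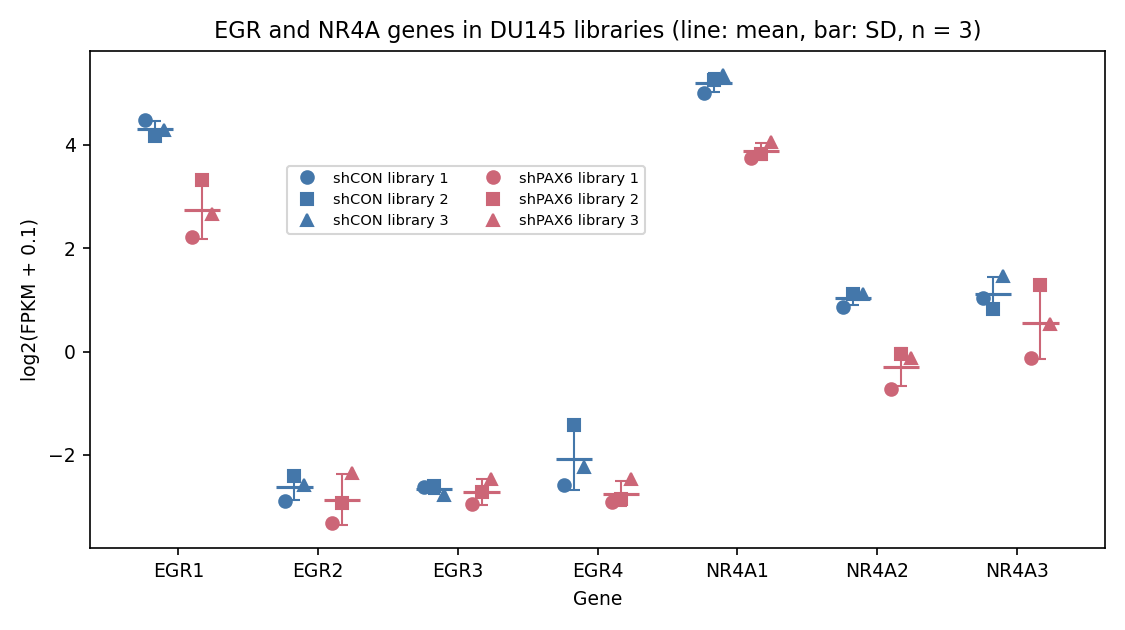
Level of the 7 members in each DU145 library as log2(FPKM + 0.1), with shCON libraries in blue and shPAX6 libraries in red, the mean as a line and the SD as a bar (n = 3). EGR1, NR4A1 and NR4A2 show no overlap between arms, NR4A3 overlaps, and EGR2, EGR3 and EGR4 lie near the floor set by the pseudocount of 0.1 FPKM.

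Of the 7 members, 4 passed the filter on low values, all 4 had a log2 fold change below 0, and their median was -1.33, where 62.9% of all 13574 tested features lay below 0. Under limma with Benjamini-Hochberg adjustment over all features, 2 of the 4 were called, EGR1 and NR4A1, both lower. Among all features tested, 163 of 13574 (1.20%) were called, 24 higher (0.177%) and 139 lower (1.02%), with a median log2 fold change of -0.12. The share of calls that were lower was 85.3%, and it was 72% with each library's median set to 0, 71% after a GC correction and 68.6% after quantile normalization. All 3 shPAX6 values lay below all 3 shCON values for 3 of the 4 tested members, as for 20.0% of all tested features. Because the members were proposed from this contrast, nothing is read from these counts. The calls of single members, kept or lost, are likewise a description and no support for a change. The calls of EGR1 and NR4A1 were lost when any shCON library or shPAX6 library 3 was left out, and kept without shPAX6 library 1 or without library 2, where NR4A2 was called as well. EGR1 also lost its call with a pseudocount of 0.01, without the filter or without a trend in the fit, and NR4A2 gained a call with a pseudocount of 1 or without a trend. Transcript GC content was 55.3% for EGR1 and 59.8% for NR4A1, against 47.9% for NR4A2, 46.9% for NR4A3 and a median of 48.3% over tested features. Across 12009 features the log2 fold change was lower at higher GC (Spearman rho -0.36, taken across genes, so the points are not replicates). After the GC correction the log2 fold changes were -1.46 for EGR1, then no longer called, and -1.15 for NR4A1, still called.

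In LNCaP, parental cells were compared with LNCaP-ENZ cells to follow gene expression under lasting enzalutamide. The libraries held 20468001 and 17945722 counts, and counts were scaled by these totals to CPM. With 1 library per arm no difference has a replicate check, and the 95% intervals (exact Clopper-Pearson on the split of counts) cover only counting error, so they set 1 library against another and say nothing of the conditions. Of the luminal prostate markers, KLK3, the gene of prostate-specific antigen, had 1817 counts in control and 1186 in LNCaP-ENZ cells.

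EGR1 and NR4A1 stood in opposite directions in LNCaP-ENZ cells. EGR1 had 301 counts in control and 792 in LNCaP-ENZ cells, or 14.7 and 44.1 CPM, a 3-fold higher level (interval 2.62 to 3.44) and a log2 ratio of CPM + 0.1 of 1.58 (1.39 to 1.78). By TPM, which divides by gene length, EGR1 went from 4.9 to 13.8 and from rank 8291 to rank 3818. NR4A1 had 849 and 405 counts, or 41.5 and 22.6 CPM, a 1.84-fold lower level (1.63 to 2.07) and a log2 ratio of -0.88 (-1.05 to -0.71). Its TPM went from 11 to 5.63, and its rank from 5012 to 6849. Over the other scalings tried, the log2 ratio stayed between 1.48 and 1.73 for EGR1 and between -0.95 and -0.72 for NR4A1.

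The remaining members had few counts in LNCaP. NR4A2 had 30 counts in control and 14 in LNCaP-ENZ cells, with a log2 ratio of -0.83 (-1.94 to 0.05). NR4A3 had 9 and 5 counts, with a log2 ratio of -0.51 (-2.58 to 1.07). Neither difference was detectable at this depth. EGR2 had 10 and 1 counts, a ratio of control to LNCaP-ENZ of 8.77 with a counting interval of 1.25 to 380, and EGR3 had 7 and 1 counts, a ratio of 6.14 (0.788 to 277). EGR4 had 0 counts in both libraries, where the floor of 3 counts corresponds to 0.147 CPM in control and 0.167 CPM in LNCaP-ENZ cells. PAX6 had 11 and 4 counts, with a log2 ratio of -0.98 (-3.38 to 0.49), so the arms could not be told apart by PAX6 at this depth.

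**Figure D2:**
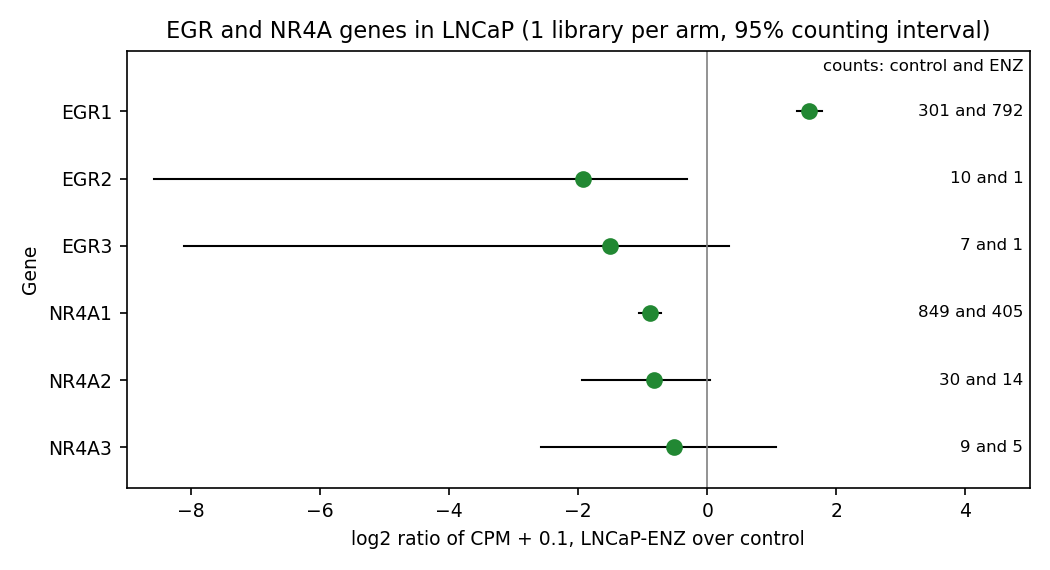
Log2 ratio of CPM + 0.1 in LNCaP-ENZ over control for the 6 members with counts, with 95% counting intervals and the counts of both libraries at the right, and EGR4 left out for having 0 counts. EGR1 lies at 1.58 and NR4A1 at -0.88 with narrow intervals, whereas EGR2 and EGR3, with 1 count each in LNCaP-ENZ cells, have intervals that run below -8.

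Of the 3 members with a mean CPM of at least 1, EGR1, NR4A1 and NR4A2, 1 was past 2-fold, EGR1. Among the 14767 genes at that level, 1684 (11.4%) were past 2-fold, 271 higher (1.84%) and 1413 lower (9.57%), and the median log2 ratio was -0.15. EGR2 and EGR3 lie under that level, with 1 count each in LNCaP-ENZ cells, and had log2 ratios of -1.92 and -1.51. Counting them, 3 of the 7 members were past 2-fold, EGR1 higher and the other 2 lower. No share over all genes was taken at such low counts, so nothing is read from this count.

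The balance of NR4A1 to EGR1 within a library needs no scaling between libraries. In DU145 the FPKM ratio of NR4A1 to EGR1 was 1.43, 2.14 and 2.1 in shCON and 2.93, 1.42 and 2.65 in shPAX6. The arms overlapped, with NR4A1 the higher gene in all 6 libraries. In LNCaP the TPM ratio was 2.24 (1.97 to 2.57) in control and 0.407 (0.36 to 0.459) in LNCaP-ENZ cells, the only library of the 8 in which EGR1 was the higher gene. The ratio of NR4A1 to NR4A2 was 18.5, 18.4 and 19.7 in shCON, 26.4, 16.2 and 20.3 in shPAX6, and 25.3 (17.6 to 37.8) and 25.9 (15.3 to 47.8) in LNCaP control and LNCaP-ENZ cells. EGR1 and NR4A1 together made up 92.4% to 93.4% of the summed level of the 7 members in shCON, 87.8% to 92.8% in shPAX6, 95.5% in LNCaP control and 98.5% in LNCaP-ENZ cells. That sum was 58.2, 60.4 and 65.1 FPKM in shCON, 19.3, 27.4 and 25.2 FPKM in shPAX6, and 16.6 and 19.8 TPM in the LNCaP libraries. The DU145 and LNCaP tables were normalized separately and their sums are not compared.

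**Figure D3:**
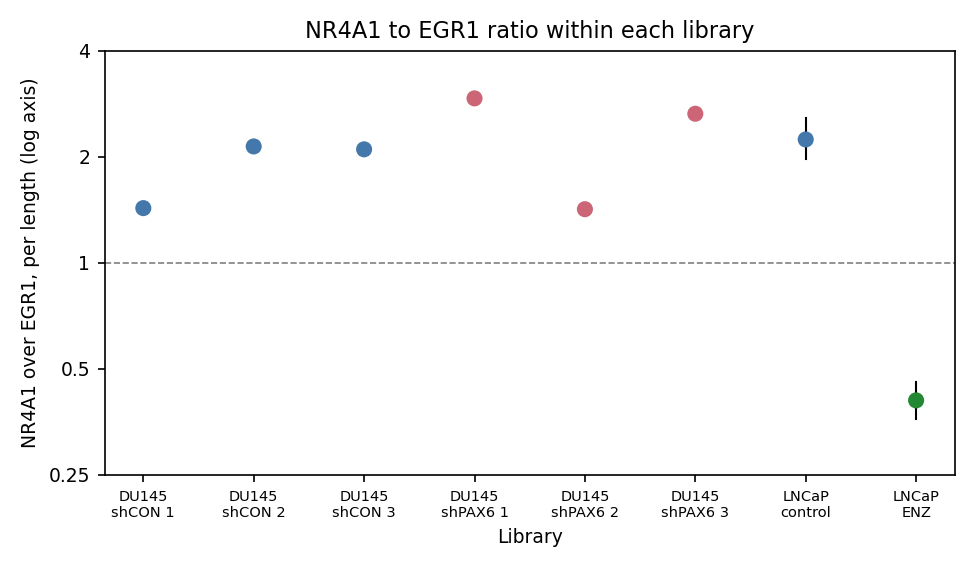
Ratio of NR4A1 to EGR1 per transcript length in each of the 8 libraries, from FPKM in DU145 and from TPM in LNCaP, on a log axis with 95% counting intervals for LNCaP. The 6 DU145 libraries and LNCaP control lie between 1.42 and 2.93, and LNCaP-ENZ lies at 0.407.

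The partners of the factors were examined next, as a list of 8 genes. In DU145, 6 were tested, 0 were called, and all 6 had a log2 fold change below 0 (median -0.48), where 62.9% of all tested features did. By limma 3 of the 6, all lower, had an unadjusted p under 0.05, as had 2480 of all 13574 tested features (18.3%), of which 1917 were lower (14.1%) and 563 higher (4.15%). NAB2, a corepressor that EGR factors induce and that silences them in return, had 21.2 ± 1.8 FPKM in shCON and 12.7 ± 1.5 in shPAX6 (SD, n = 3), and its log2 fold change was -0.73 with a limma adjusted p of 0.067. RXRA, the retinoid X receptor that pairs with NR4A1 and NR4A2, had 17.4 ± 0.87 and 10.2 ± 4.4 FPKM, with a log2 fold change of -0.84 and a limma adjusted p of 0.19. In LNCaP, 7 of the 8 reached a mean CPM of 1 and 0 were past 2-fold (median log2 ratio -0.08). NAB2 had 169 and 158 counts there, and RXRA 2900 and 3456.

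Of 18 upstream kinases and transcription factors, 17 were tested in DU145, and 1 was called, lower, with 3 lower and 0 higher at an unadjusted p under 0.05 by limma (median log2 fold change -0.30). Those 3 of 17 are a share near the 18.3% over all features, and 1.02% of all features were called lower. The called gene was MAPK3, the kinase ERK1, which fell from 68.5 ± 2.3 to 42.3 ± 3.1 FPKM, a log2 fold change of -0.70 (SE 0.12, limma adjusted p = 0.045). RPS6KA1, a ribosomal S6 kinase downstream of ERK, had 32.5 ± 1.8 and 20.1 ± 1.4 FPKM (limma adjusted p = 0.054). In LNCaP, 2 of the 17 genes expressed were more than 2-fold lower, RPS6KA3, a kinase of the same family, with 1537 and 474 counts, and ELK3, a partner of SRF, with 224 and 90 counts (log2 ratio -1.11).

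The other immediate-early genes did not share a direction in DU145. Of 30 genes, 27 were tested, 17 were above 0 and 10 below, with a median log2 fold change of 0.05, and 1 was called in each direction. Over all tested features, 0.177% were called higher and 1.02% lower. HBEGF, an EGF receptor ligand, rose from 12.5 ± 0.56 to 26.1 ± 3.4 FPKM (log2 fold change 1.05, SE 0.15, limma adjusted p = 0.028). JUNB, a subunit of AP-1, fell from 59.8 ± 10 to 29.1 ± 3.2 FPKM (-1.03, SE 0.17, limma adjusted p = 0.041). The calls of JUNB and MAPK3 were lost without the filter, with median centring, without a trend in the fit or after the GC correction, where that of HBEGF held, and all 3 were lost without any shCON library or without shPAX6 library 3. At an unadjusted p under 0.05 by limma, 7 were higher and 5 lower of the 27, against 4.15% higher and 14.1% lower over all features. In LNCaP, 28 of the 30 reached a mean CPM of 1, 2 were more than 2-fold higher and 5 more than 2-fold lower (median log2 ratio -0.31). The shares over all genes at that level were 1.84% and 9.57%. HBEGF had 78 and 157 counts (log2 ratio 1.18, 0.80 to 1.61) and JUNB 1247 and 1802 (0.72, 0.62 to 0.83), whereas KLF4, a zinc finger factor, had 318 and 106 (-1.38) and ARC, a gene induced by neuronal activity, 307 and 104 (-1.36). JUNB thus took the same directions as EGR1, lower in DU145-shPAX6 and higher in LNCaP-ENZ, and HBEGF was higher in both. JUNB was not alone in this, since FOS, IER2, IER5, ZFP36 and KLF10 had the same signs, and none of them was called in DU145. In LNCaP the counting intervals of IER5 (-0.14 to 0.59), ZFP36 (-0.01 to 0.44) and KLF10 (-0.18 to 0.20) included 0. The share of all genes with these signs was not taken. These are values side by side, and whether the genes differ from each other was not tested.

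Readouts of ERK signalling were examined as 14 output and feedback genes. In DU145, 13 were tested and 0 were called at the main settings, with a median log2 fold change of 0.08. At an unadjusted p under 0.05 by limma, 2 were higher and 0 lower, against 4.15% higher and 14.1% lower over all features. The 2 were CCND1, the cyclin D1 gene, with 80 ± 5.4 and 134 ± 28 FPKM (limma adjusted p = 0.092) and ETV4, an ETS factor, with 19.1 ± 0.88 and 25.2 ± 4 FPKM (limma adjusted p = 0.24). In LNCaP, 2 of 12 were more than 2-fold higher and 2 more than 2-fold lower. DUSP5, a phosphatase of nuclear ERK, had 310 and 1635 counts (log2 ratio 2.58, 2.41 to 2.77), and PHLDA1 had 414 and 74 (-2.27).

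Among 11 genes described elsewhere as EGR1 targets, 10 were tested in DU145 and 0 were called. Their median log2 fold change was -0.12, the same as over all features. At an unadjusted p under 0.05 by limma, 1 was higher and 3 were lower, against 4.15% and 14.1% over all features. NAB2, which is also on the list of partners, was 1 of the 3 lower genes. ICAM1, an adhesion molecule, had 149 ± 3.4 FPKM in shCON and 106 ± 16 in shPAX6 (limma adjusted p = 0.14). In LNCaP, 9 were expressed, 0 were more than 2-fold higher and 2 more than 2-fold lower. The shares over all expressed genes were 1.84% and 9.57%. ICAM1 had 255 and 137 counts there (log2 ratio -0.70). Of 9 lineage targets of EGR2, EGR1 and NR4A factors, such as myelin and dopamine neuron genes, 4 were tested in DU145 and 0 called. At an unadjusted p under 0.05 by limma, 0 were higher and 1 was lower, against 4.15% and 14.1% over all features. That gene was PRX, which encodes the myelin protein periaxin, with 2.62 ± 0.15 and 1.06 ± 0.27 FPKM (limma adjusted p = 0.066). In LNCaP, 4 lineage targets were expressed and 2 were more than 2-fold lower, against 9.57% of all expressed genes. Among the 2 was SLC18A2, a vesicular monoamine transporter, with 221 and 77 counts (-1.31).

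**Figure D4:**
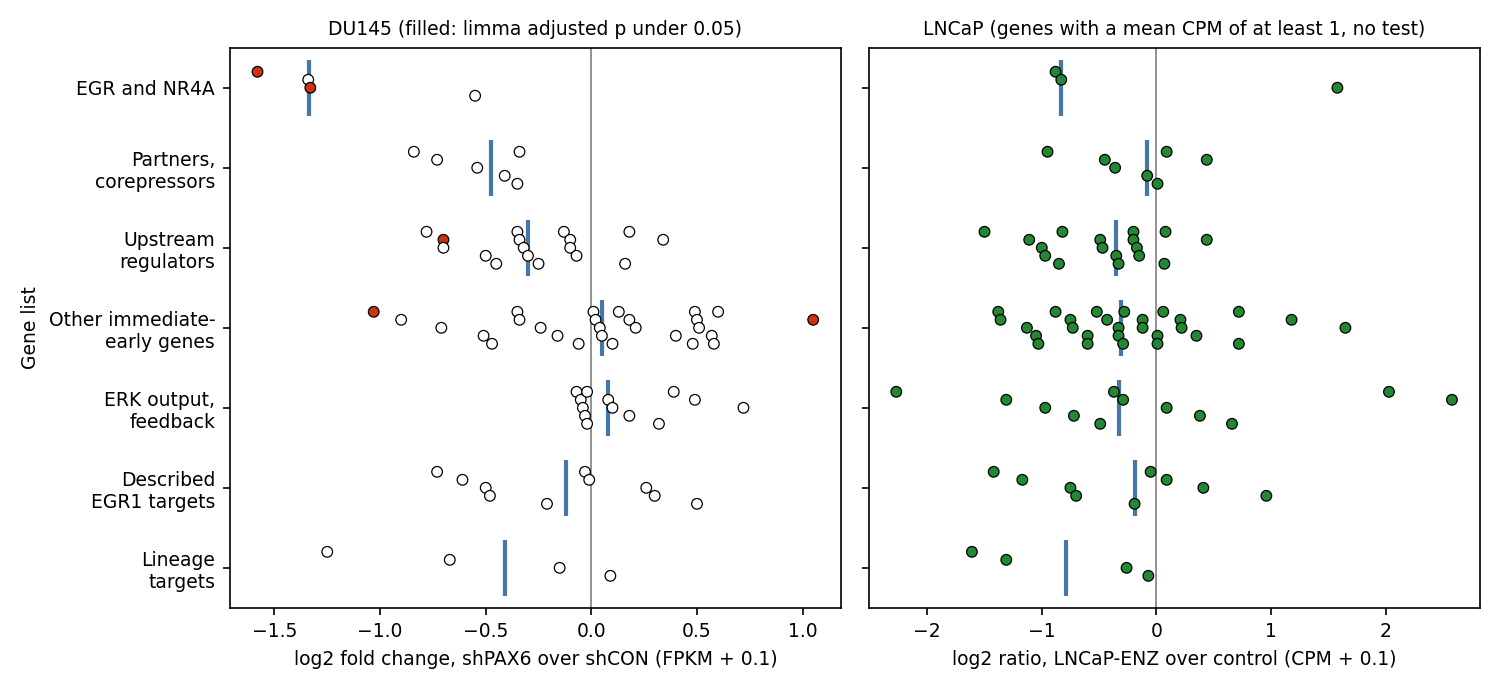
Each point is a gene of the named list, at its log2 fold change in DU145 (left, log2 of FPKM + 0.1, filled red where limma called it) or its log2 ratio in LNCaP (right, log2 of CPM + 0.1, no test), with a blue bar at the list's median. The 4 tested EGR and NR4A genes lie below 0 in DU145, the other immediate-early genes spread to both sides with a median of 0.05, and EGR1 lies apart from NR4A1 and NR4A2 in LNCaP.

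The genes with the pattern most like a member in DU145 were found by the root mean square (RMS) difference of centred log2(FPKM + 0.1) over the 6 libraries, a description within the same contrast. For EGR1 they were IFIT2, an interferon-induced gene (RMS difference 0.119, log2 fold change -1.67), NPTX1, neuronal pentraxin (0.161, -1.75), and SIK1B (0.169, -1.57). Where the build used for DU145 holds both SIK1B and its near-identical copy SIK1, their reads cannot be told apart. For NR4A1 they were KLC3, a kinesin light chain (0.0848, -1.18), SIX5, a homeobox factor (0.0986, -1.37), and CBLC, a ubiquitin ligase (0.0987, -1.46). Within the family NR4A2 was nearest to both, at 0.178 from NR4A1 and 0.269 from EGR1. EGR1 and NR4A1 differed by 0.391, and NR4A3 was farther from both (0.556 from EGR1 and 0.582 from NR4A1).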

How the data were processed

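RNA-seq of 2 LNCaP and 6 DU145 libraries was used, grouped by the condition in the sample labels. The 6 ATAC-seq samples were not analysed here. According to the methods, the authors aligned reads to GRCh37 with HISAT2, quantified them with StringTie and tested with DESeq2, versions not given in the sources used here. The labels name a library kit and the methods describe oligo-dT priming without naming a kit. The methods state 3 replicates per line where the labels give 1 LNCaP library per arm. For LNCaP, the authors deposited counts per gene and TPM, in which the small nuclear RNA RN7SK took 38.8% and 38.5%. For DU145, the deposited values name no unit and were treated as FPKM. As 546 genes with low values showed no step shared between libraries, whole reads could not be recovered, and limma took the place of a count test.

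DU145 values were fitted with limma 3.58.1 (R 4.3.3, eBayes with trend) on log2(FPKM + 0.1), two-sided, for the features whose mean reached 0.5 FPKM, with p adjusted after Benjamini-Hochberg at a threshold of 0.05. LNCaP counts were scaled by library totals, with a pseudocount of 0.1 CPM. The pseudocounts understate the change of low genes. TMM factors came from edgeR 4.0.16. The members and gene lists were chosen with earlier results of these data known. Genes named are the members, PAX6, the called genes of each list or up to 2 with the smallest unadjusted p, the 3 features most like EGR1 and NR4A1, and in LNCaP for each list the 2 largest log2 ratios of each sign where the mean CPM reached 5, of which not all are printed. NAB2 and RXRA were also given in LNCaP, and FOS, IER2, IER5, ZFP36 and KLF10 were named for their signs only. GADD45B and PPP1R15A were named for calls under other settings. Some genes that this rule covers are not reported here. On simulated data with 200 of 13574 genes changed by 1.5 on the log2 scale, the DU145 fit called 52%, and 6.31% of its calls were unchanged genes. The simulated noise was independent between genes, with no shift shared across a library. These shares therefore do not carry over to the DU145 libraries, whose calls depended on single libraries.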

Additional observations from a re-analysis of the deposited data

How the results depend on the processing

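No sign of the 4 DU145 members tested or the 6 LNCaP members with counts reversed under the alternatives run. The DU145 counts of all features, members and list genes called were 163, 2 and 3. With no filter they were 108, 1 and 1, with a threshold of 0.01 they were 17, 0 and 0, and with each library's median set to 0 the features called were 100. A pseudocount of 1 called 5 list genes, and a pseudocount of 0.01 and the GC correction each called 1 member, NR4A1, as did the fit with no filter. NR4A2 was called with a pseudocount of 1, beside EGR1 and NR4A1, and without a trend, where EGR1 was not. Leaving out a library gave 0 to 920 features, 0 to 3 members and 0 to 13 list genes: 920 without shPAX6 library 1, 903 without library 2, 10 without library 3, and 0, 5 and 0 without shCON library 1, 2 or 3. At an unadjusted p under 0.05, the limma fits behind the counts of 0 features had 1617 without shCON library 1 and 1258 without shCON library 3. The calls of HBEGF, JUNB and MAPK3 were lost without any shCON library or shPAX6 library 3, those of JUNB and MAPK3 also with no filter, with median centring, without a trend or after the GC correction, and that of MAPK3 with a pseudocount of 0.01. Other list genes gained a call. CCND1 was called with median centring, and PRX with a pseudocount of 1, after quantile normalization or without a trend. RPS6KA1 was called with a pseudocount of 1, and GADD45B and PPP1R15A after the GC correction. Without shPAX6 library 1 or 2, PRX, RPS6KA1 and PPP1R15A were called as well. Setting each library's median to 0 moved the median log2 fold change from -0.12 to 0.06, and the members kept their sign. In LNCaP, 3 of the 7 members were past 2-fold, EGR1 higher and the low-count EGR2 and EGR3 lower. The count was 1 with a pseudocount of 1 CPM or where a mean of 1 CPM was required. The causes were not tested. Depth limits EGR2, EGR3, EGR4 and NR4A3 in LNCaP.

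The labels give the DU145 arms the same replicate numbers. The deviations of same-numbered libraries from their arm means had correlations of -0.17, -0.37 and 0.052. Differently numbered libraries were not compared, so these values do not settle whether the numbers pair the libraries. With the replicate block, alone or with the GC correction, 0 features, 0 members and 0 list genes were called by limma, with 1568 and 1352 features at an unadjusted p under 0.05.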
